A study of Mus musculus with 57 samples.

Results

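Acetylated and trimethylated lysine 27 of histone H3 (H3K27ac and H3K27me3) were compared in the brain cortex of the same 9 mice, using 18 of the 57 ChIP-seq libraries of the series. The members were chosen by the antibody and tissue in the labels, giving 9 libraries for each mark, and the libraries of a mouse were matched by the animal code that their deposited peak lists carry. Only chromosomes 1 to 19 were used. All mice carried the PSAPP label, a strain with transgenes for mutant human presenilin 1 and for a chimeric mouse/human amyloid precursor protein with the Swedish mutation. They were of both sexes and 13 months old, had been fed chow, and were kept singly on a modified AIN-93 diet from 6 months of age. No mice without the transgenes were part of the design, so nothing here compares the strain with a control. Chromatin came from 10 mg of snap-frozen bulk cortex, in which neurons, glia and vessel cells are mixed. The 9 H3K4me3 libraries of the same cortices and the 20 gastrocnemius libraries for the 2 marks served only as references.

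Lysine 27 of a single H3 tail can carry an acetyl group or methyl groups, but not both at once. H3K27ac is placed by p300 and CBP and marks active promoters and enhancers, while H3K27me3 is placed by Polycomb repressive complex 2, whose catalytic subunit is Ezh2 or Ezh1, and lies over silent genes, among them the regulators of other lineages. Peaks of both marks at a site in bulk tissue may come from the other tail of a nucleosome, the other allele or other cells, and in such tissue fewer cells of a type and less mark per cell cannot be told apart.

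Promoters with each pattern are shown here because the CG content differed between the classes described further on. They are the first members with a sequence of 3 ranked sets: both marks (Prnp and Hjurp), H3K27ac without H3K27me3 in any of the 9 cortex animals (Tnrc18 and Dusp7) and H3K27me3 without H3K27ac in any of them (Ugt1a1 and Hoxa10). Each is RefSeq sequence of GRCm38.p6, the assembly also called mm10, from 250 bases before to 50 after the start site on the gene's own strand, and capitals mark CG dinucleotides. Prnp, which shares its start site with the readthrough entry Prn, encodes the prion protein and lies at chr2:131909678-131909977 on the plus strand, with 22 CG. Its signal cannot be told apart from that of any transgene copies, as described below. Hjurp, the chaperone of the centromeric histone CENP-A, lies at chr1:88277530-88277829 on the minus strand, with 22 CG. Tnrc18 lies at chr5:142817613-142817912 on the minus strand, with 21 CG. Dusp7, a phosphatase of MAP kinases, lies at chr9:106368382-106368681 on the plus strand, with 41 CG. Ugt1a1, which conjugates bilirubin in the liver, lies at chr1:88211709-88212008 on the plus strand, with 2 CG. Hoxa10, a positional regulator of the trunk and limbs, lies at chr6:52234890-52235189 on the minus strand, with 21 CG.
Prnp: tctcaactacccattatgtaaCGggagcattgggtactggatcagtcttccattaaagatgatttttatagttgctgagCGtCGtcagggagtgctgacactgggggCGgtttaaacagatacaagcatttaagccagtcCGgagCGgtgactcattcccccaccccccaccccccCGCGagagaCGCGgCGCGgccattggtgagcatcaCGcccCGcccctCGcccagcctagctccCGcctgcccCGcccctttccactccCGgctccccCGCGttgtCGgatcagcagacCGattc
Hjurp: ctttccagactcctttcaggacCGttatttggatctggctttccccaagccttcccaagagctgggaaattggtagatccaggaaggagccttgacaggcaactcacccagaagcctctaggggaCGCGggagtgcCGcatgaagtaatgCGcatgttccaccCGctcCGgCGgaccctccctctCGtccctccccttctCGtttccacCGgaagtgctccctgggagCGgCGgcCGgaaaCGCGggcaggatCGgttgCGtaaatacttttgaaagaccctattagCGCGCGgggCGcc
Tnrc18: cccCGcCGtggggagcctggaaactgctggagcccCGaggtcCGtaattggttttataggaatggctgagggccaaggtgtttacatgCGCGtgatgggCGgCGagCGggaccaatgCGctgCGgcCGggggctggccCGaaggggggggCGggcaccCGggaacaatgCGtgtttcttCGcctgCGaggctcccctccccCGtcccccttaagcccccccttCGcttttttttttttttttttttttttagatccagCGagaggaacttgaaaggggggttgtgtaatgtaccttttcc
Dusp7: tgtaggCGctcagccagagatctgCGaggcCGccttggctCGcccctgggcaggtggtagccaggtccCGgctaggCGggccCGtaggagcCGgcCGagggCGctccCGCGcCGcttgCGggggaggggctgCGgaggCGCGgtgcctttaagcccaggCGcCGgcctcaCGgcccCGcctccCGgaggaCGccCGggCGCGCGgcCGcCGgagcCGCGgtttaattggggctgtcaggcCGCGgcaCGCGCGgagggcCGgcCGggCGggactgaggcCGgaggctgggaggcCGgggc
Ugt1a1: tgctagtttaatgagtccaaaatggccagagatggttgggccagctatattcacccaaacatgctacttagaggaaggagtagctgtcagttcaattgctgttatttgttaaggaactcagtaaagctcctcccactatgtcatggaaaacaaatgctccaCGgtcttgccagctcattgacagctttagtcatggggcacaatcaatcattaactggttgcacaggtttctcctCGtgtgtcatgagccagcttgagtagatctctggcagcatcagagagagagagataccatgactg
Hoxa10: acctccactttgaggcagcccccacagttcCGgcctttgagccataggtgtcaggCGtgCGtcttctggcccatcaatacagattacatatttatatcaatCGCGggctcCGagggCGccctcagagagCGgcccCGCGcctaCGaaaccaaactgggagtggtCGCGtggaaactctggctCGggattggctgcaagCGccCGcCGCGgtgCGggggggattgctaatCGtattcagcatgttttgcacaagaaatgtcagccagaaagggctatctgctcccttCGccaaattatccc

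The libraries held 3.90 to 21.0 M reads in autosomal peaks for H3K27ac (median 17.3 M) and 3.90 to 6.35 M for H3K27me3 (median 5.14 M). The shallowest H3K27ac library, of animal 9, stood apart at 3.90 M against 14.3 to 21.0 M in the other 8. Animals 8 and 9 carry a run number in their file names and were treated as a possible batch, so values are also given for the 7 animals without and the 2 with that number. Synaptic genes, the defining genes of neurons used here, carried H3K27ac at 21 of 21 promoters in all 9 animals, beside 59.1% of all promoters.

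One check of the labels gave a different value in animal 5. The PSAPP transgenes are built on the promoter of the mouse prion protein gene Prnp, so reads from their copies would be counted at the endogenous gene, and the contributions of the endogenous gene and of the transgenes cannot be told apart. Signal is given as RPM, per M reads (M as in Mb) in the autosomal peaks of the library. It counts the peak reads assigned to within 2.5 kb of the start site. The reads of a peak were spread evenly over its width, so the value also depends on the called width. H3K27ac at Prnp was 94.7 to 150.6 RPM in the cortex of 8 animals (median 129) and 25.5 in animal 5. H3K27me3 was 199.7 to 307 RPM in the same 8 animals (median 270), where at most 2 promoters of the genome had more, and 0 in animal 5. H3K4me3 was 223 to 291 RPM (median 249.8) and 62.3 in animal 5. The 8 H3K27me3 peaks had the same ends, chr2:131903801-131912200, and animal 5 had no H3K27me3 peak there. Gastrocnemius muscle of the same animal differed in the same way, with H3K27ac at 19.9 RPM against 114 to 205, H3K27me3 at 0 against 173 to 346, and H3K4me3 at 48.5 against 170 to 241 in the other 9 muscles. Whether animal 5 carries the transgenes was not tested. The main results are therefore also given without it. Without animal 5 the differences described next were 54.6 Mb in covered length, 22641 in peak number and -1.55 kb in median width, and the overlap ratio was -0.45 near start sites. The ratio stood 1.01 below that of H3K4me3 and 0.34 above that of gastrocnemius, the border values were -0.36 and -0.48, and the density differences were 0.27 for H3K27me3 and -0.014 for H3K27ac. The calls of these results were the same as with all 9 animals.

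**Figure D1:**
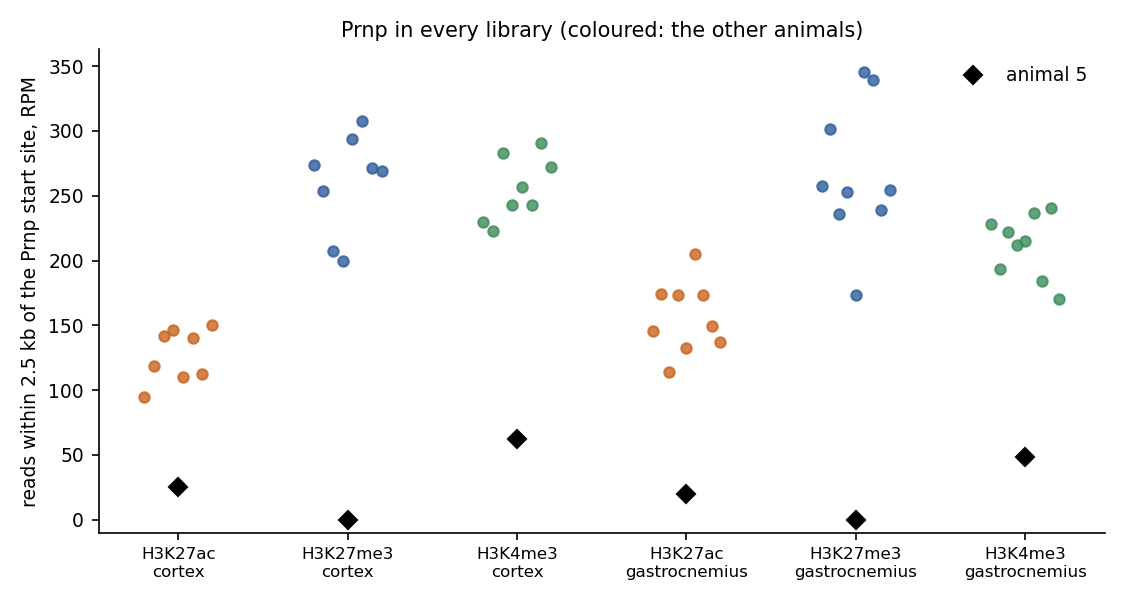
RPM within 2.5 kb of the Prnp start site on the vertical axis, for each library of each mark in cortex and gastrocnemius, with animal 5 marked. In each of the 6 combinations of mark and tissue, animal 5 lies below all other animals, and for H3K27me3 it lies at 0 in both tissues.

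The H3K27ac peaks covered more of the genome than those of H3K27me3 in 8 of 9 animals, and they were more numerous and narrower. The H3K27ac libraries also held more reads in peaks, 15.9 M ± 5.03 against 5.07 M ± 0.757, except in animal 9, with 3.90 M against 5.74 M. H3K27ac peaks covered 311.1 Mb ± 40.8 (SD, n = 9), or 13.0% of the autosomes without gaps, and H3K27me3 peaks covered 252.7 Mb ± 32.4, or 10.5%. The difference was 58.4 Mb and was positive in 8 of 9 animals (exact permutation of the mark labels over 18 libraries, two-sided, p = 0.00539, adjusted p = 0.00701 over the 13 tests). It was 63.8 Mb in the animals without and 39.6 Mb in those with a run number. H3K27ac had 45891 to 74382 peaks (mean 64407 ± 9005) and H3K27me3 33359 to 46740 (mean 40995 ± 4970), which differed by 23411 (same test, p = 0.000165, adjusted p = 0.00214), or by 26510 without and 12567 with a run number, and by 12532 when equally many top-scoring peaks were kept in each library of a mark. That last value is fixed by the smallest library of each mark, with 45891 and 33359 peaks. In animal 9 alone the H3K27ac library had no more peaks than the H3K27me3 library, 45891 against 45902, and covered less, by -20.4 Mb. Without it the differences were 68.3 Mb and 26339 peaks, and the part of depth in them was not tested. The median peak was 3.33 kb ± 0.436 wide for H3K27ac and 4.93 kb ± 0.819 for H3K27me3, and the H3K27me3 peaks were wider in 9 of 9 animals (difference -1.6 kb, same test, p = 0.000494, adjusted p = 0.00321), by -1.86 kb without and -0.70 kb with a run number. The authors joined windows over gaps of up to 400 bp for H3K27ac and 600 bp for H3K27me3, and the part of that setting in the widths was not tested.

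Both marks lay together less often than the product of their coverages. The overlap was 16.6 to 35.2 Mb per animal (mean 27.7 Mb ± 5.92), in a mean of 9832 segments with a median width of 2.4 kb. Expressed as the log2 of the overlap over what independent placement of both coverages gives, it was -0.49 in the lowest animal, -0.21 in the median and -0.07 in the highest, with a mean of -0.25 ± 0.15 (SD, n = 9), which is a ratio of 0.839. The value was below 0 in 9 of 9 animals (exact sign-flip permutation test, two-sided, p = 0.00391, the smallest that 9 animals allow, adjusted p = 0.00564). It was -0.24 without and -0.31 with a run number, and -0.27 without animal 5. The size depends on what is taken as the genome: with only the 10 kb bins that held any peak it was -0.85. Within 2.5 kb of start sites, where both marks are dense, it was -0.44 ± 0.09 (ratio 0.736, range -0.58 to -0.36, below 0 in 9 of 9 animals, exact sign-flip p = 0.00391, adjusted p = 0.00564), with -0.43 without and -0.47 with a run number. Outside these windows it was -0.39 ± 0.17, an added value that was not tested against the one inside.

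Seen from each mark, the overlap was a small part. Of H3K27ac bases, 8.83% ± 1.01 (range 7.33 to 10.6) lay under H3K27me3 in the same animal, and of H3K27me3 bases 10.98% ± 1.99 (range 6.92 to 13.1) lay under H3K27ac. Counted as peaks, 14.2% of H3K27ac peaks touched an H3K27me3 peak, 5.95% lying wholly under it and 8.21% partly. Another 1.99% ended within 1 kb of an H3K27me3 peak without touching it, and 71.7% were over 10 kb away. Of H3K27me3 peaks, 20.7% touched an H3K27ac peak, 3.46% wholly and 17.2% partly, and 59.4% were over 10 kb from any. The shared bases were placed near genes: 28.0% ± 3.24 of them lay within 2.5 kb of a start site, against 17.8% of all H3K27ac bases, 8.74% of all H3K27me3 bases and 4.87% of the autosomes.

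The overlap was lowest among the strongest H3K27ac peaks. After these values had been seen, peaks were split into quartiles by their deposited score. From the lowest to the highest H3K27ac quartile the log2 overlap ratio was 0.15, 0.09, -0.02 and -0.65, and no quartile was tested against 0. The highest quartile lay 0.80 ± 0.14 below the lowest, in 9 of 9 animals (exact sign-flip permutation test, two-sided, p = 0.00391, adjusted p = 0.00391 over 5 added tests), and the share of its bases under H3K27me3 was 6.73% against 11.7%. Ranked by H3K27me3 score instead, the ratio was -0.38 in the lowest and -0.19 in the highest quartile, a difference of 0.19 ± 0.12 in the other direction (9 of 9 animals, same test, p = 0.00391, adjusted p = 0.00391). In the animals without and with a run number these differences were -0.78 and -0.86 for H3K27ac, and 0.20 and 0.17 for H3K27me3, and without animal 5 they were -0.82 and 0.20. The lowest H3K27ac quartile covered 34.3 Mb and the highest 155.3 Mb, and the part of peak size in the difference was not tested.

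**Figure D2:**
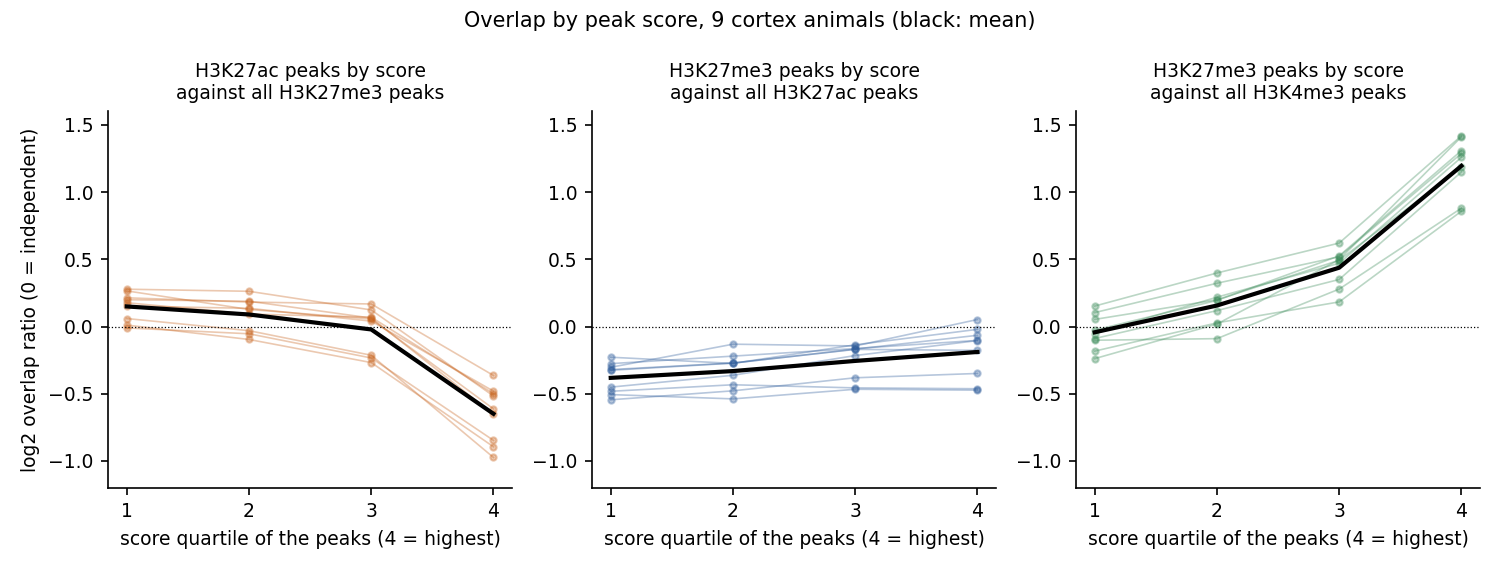
Log2 overlap ratio on the vertical axis against the quartile of peak score, for H3K27ac peaks against H3K27me3, H3K27me3 peaks against H3K27ac and H3K27me3 peaks against H3K4me3, with 1 line per animal and the mean of 9 in black. The mean for H3K27ac peaks goes from 0.15 in the lowest to -0.65 in the highest quartile, and that for H3K27me3 peaks from -0.38 to -0.19, while their overlap with H3K4me3 goes from -0.04 to 1.20.

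H3K4me3, which sits on another residue of the tail and marks start sites, lay differently. Its log2 overlap ratio with H3K27me3 was 0.76 ± 0.17, so that of H3K27ac was lower by 1.01 ± 0.11 (9 of 9 animals, exact sign-flip permutation test, two-sided, p = 0.00391, adjusted p = 0.00564), and the difference was -0.98 and -1.11 in the animals without and with a run number. Bases that carried both H3K27ac and H3K27me3 were under H3K4me3 more often than those with either alone: 30.7% ± 5.83 against 16.2% ± 2.79 of H3K27ac-only bases and 0.949% ± 0.388 of H3K27me3-only bases. From the lowest to the highest H3K27me3 score quartile the ratio with H3K4me3 went from -0.04 to 1.20, a difference of 1.24 ± 0.20 (9 of 9 animals, added test, exact sign-flip p = 0.00391, adjusted p = 0.00391). The differences of 14.4 and 29.7 percentage points in H3K4me3 share held in 9 of 9 animals each (added tests, exact sign-flip p = 0.00391, adjusted p = 0.00391) and were 13.6 and 28.2 points without, and 17.6 and 35.3 with, a run number, and 14.5 and 29.95 points without animal 5. The cortex and gastrocnemius also differed: the ratio of H3K27ac and H3K27me3 was -0.25 ± 0.15 in the cortex and -0.61 ± 0.11 in the muscle of the same 9 animals, a difference of 0.36 ± 0.18 (range 0.07 to 0.65, 9 of 9 animals, exact sign-flip p = 0.00391, adjusted p = 0.00564), and it was 0.39 without and 0.23 with a run number.

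H3K27ac was lowest just outside H3K27me3 edges. At H3K27me3 peaks at least 2 kb wide, it covered 10.5% ± 1.81 of the first 1 kb inside the edge, 8.21% ± 1.401 of the first 1 kb outside and 11.4% ± 1.72 of the stretch 9 to 10 kb outside, against 13.0% of the autosomes. The log2 of outside over inside was -0.35 ± 0.05 and that of the near over the far outside -0.48 ± 0.09, each below 0 in 9 of 9 animals (exact sign-flip permutation test, two-sided, p = 0.00391, adjusted p = 0.00564). Both values lay between -0.34 and -0.36, and -0.49 and -0.46, when any animal was left out. The lowest window, 7.87% ± 1.33, was 0.4 to 0.6 kb outside the edge. Edges of H3K27ac peaks looked the same in reverse at short range: outside the edge H3K27me3 was lowest, at 7.91% ± 1.23, in the window 0.4 to 0.6 kb away, and it was 9.90% at 0.8 to 1.0 kb inside, but it fell to 5.07% at 10 kb inside, the interior of the widest H3K27ac peaks. H3K4me3 at H3K27me3 edges instead rose towards the interior, from 2.60% in the first window inside to 7.74% at 10 kb inside, with 1.85% ± 0.192 at its lowest, 0.8 to 1 kb outside. Only the widest H3K27me3 peaks reach 10 kb inside, since the 90th percentile of their width was 10.7 kb (mean of the libraries). The 2 ends of this rise thus come from different sets of peaks. The authors' gap setting ends a peak only after a gap of unmarked windows, so how near 2 peaks of a mark can lie is fixed by it, and its part in the profile of the other mark was not tested.

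**Figure D3:**
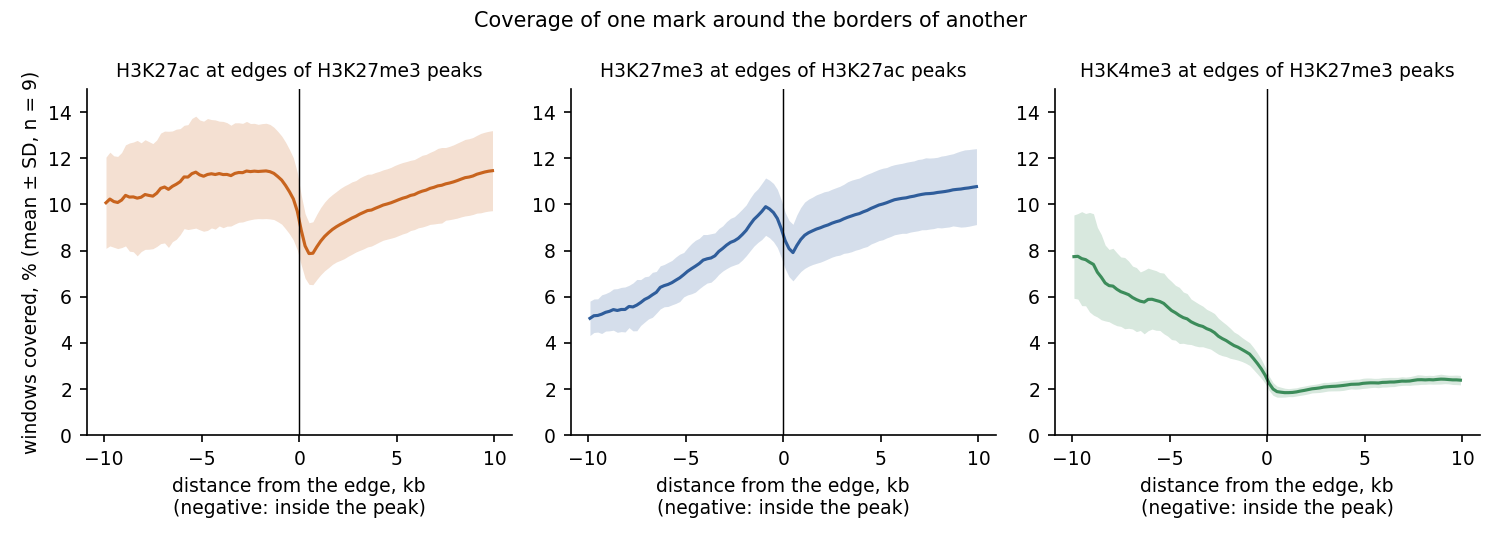
Percent of bases covered by a mark (vertical axis) against the distance in kb from an edge of the other mark's peaks (horizontal axis, negative inside), as the mean of 9 animals with its SD. H3K27ac falls to 7.87% at 0.4 to 0.6 kb outside H3K27me3 edges and H3K27me3 to 7.91% at the same distance outside H3K27ac edges, while H3K4me3 rises to 7.74% towards 10 kb inside H3K27me3 peaks. Only the widest peaks are counted that far inside.

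The median distance was too coarse to decide whether an adjoining H3K27ac peak went with how firmly an H3K27me3 edge was placed. Of the edges, a mean of 2635 (11.9%) had H3K27ac within 1 kb outside and 19493 had none. The median distance of an animal's edge from the median edge of the other animals was 533 bp ± 50 with H3K27ac and 511 bp ± 33.3 without, a difference of 22.2 bp ± 44.1 (exact sign-flip permutation test, two-sided, p = 0.5, adjusted p = 0.5), which lies within the 200 bp window of the peak lists. This difference was 100 bp in animals 2 and 3 and 0 in every other animal, so the test could give no p below 0.5. Summarised by the mean distance, an added choice, the difference was -22.3 bp (exact sign-flip p = 0.0508). The median-based value ranged from 12.5 bp, without animal 1 or 5, to 100 bp without animal 4, was 50 bp without any of animals 2, 6, 7, 8 and 9, and was -33.3 bp when H3K27me3 peaks within 1 kb were joined.

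H3K27me3 peaks that overlapped H3K27ac at any point were denser in reads, counted over the whole peak. Those that overlapped H3K27ac held 23.2 reads per kb against 19.2 in the rest, a log2 difference of 0.27 ± 0.04 in 9 of 9 animals (exact sign-flip permutation test, two-sided, p = 0.00391, adjusted p = 0.00564). H3K27ac peaks that overlapped H3K27me3 held 49.6 reads per kb against 49.9 (log2 -0.01 ± 0.02, lower in 6 of 9 animals, exact sign-flip p = 0.164, adjusted p = 0.178). Where at least 50% of the H3K27ac peak was shared, it held less: the log2 difference was -0.18 (exact sign-flip p = 0.00391, adjusted p = 0.00508). The difference between the marks' own effects and the part of peak size in these values were not tested.

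Whether the marks avoided each other within an animal was asked by pairing each H3K27ac library with the H3K27me3 library of another mouse. Promoters with both calls numbered 2878 ± 268 (SD, n = 9) with the animal's own library and 2890 with others', a difference of -11.97 (exact permutation of the pairing over 362880 pairings, two-sided, p = 0.0197, adjusted p = 0.0233). This call was lost without animal 1 (exact p = 0.0508, adjusted p = 0.0601), animal 4 (exact p = 0.0883) or animal 5 (exact p = 0.0847), and for peaks over the start site itself (exact p = 0.0720). Counted in bases, an added choice, the log2 overlap ratio was -0.25 with the own and -0.21 with others' libraries, a difference of -0.04 (exact pairing permutation, p = 4.41e-05), although 5 of 9 single animals were lower. H3K27ac of animal 3 gave -0.46 with its own H3K27me3, but -0.55 with that of animal 4 and -0.17 with that of animal 1. The test therefore cannot tell an animal's own library from those of animals like it. The promoter difference scaled by the numbers of calls was -0.0047 in log2 (exact pairing permutation, p = 0.0741).

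Of 24963 autosomal promoters, most carried H3K27ac alone. A promoter was called for a mark in an animal where a peak lay within 1 kb of its start site, and calls over the 9 libraries of each mark were compared by Fisher's exact test with Benjamini-Hochberg adjustment at an FDR of 0.05. H3K27ac was the more frequent mark at 13420 promoters (53.8%) and H3K27me3 at 2523 (10.1%). Both marks were called in the same animal in at least 7 of 9 animals at 2173 promoters (8.7%), a number that was 1269 when all 9 animals were required and 3471 when 3 were enough. A further 5117 (20.5%) had neither mark in more than 2 animals, and the remaining 1730 (6.93%) were mixed. Per animal, H3K27ac was called at 15086 to 16801 promoters (median 16532) and H3K27me3 at 5242 to 5971 (median 5717), with both at 2315 to 3298 (median 2849). The lowest counts for H3K27ac and for both marks were those of animal 9, the shallowest H3K27ac library. Both marks were thus present at 51.1% ± 4.69 of the H3K27me3 promoters and 17.5% ± 1.21 of the H3K27ac promoters. Over all promoters, H3K27ac was called at 65.6% and H3K27me3 at 22.6% in a mean animal, so both shares lay below those over all promoters. Without animal 5 the classes held 13224, 2383 and 1881 promoters, but both marks were then required in 7 of 8 animals, and leaving out any 1 animal lowered that class, to between 1838 and 1969.

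Promoters with both marks lay near those with H3K27ac in CG content and in the share with H3K4me3, but not in its level, and near those with H3K27me3 in the level of that mark, as values that were not tested between classes. Among the 18245 promoters with a RefSeq sequence of 300 bases (73.1%), the median number of CG was 21 for H3K27ac, 17 for both marks and 5 for H3K27me3, beside 13 over all promoters, of which 95.3% hold at least 1 CG. Of the sequences shown, Ugt1a1 lay on the CG-poor side with 2, while Hoxa10, in the same class, had 21. H3K4me3, which the classes did not use, was called at 90.3% ± 0.457 of the H3K27ac promoters, 90.5% ± 1.03 of those with both marks and 13.6% ± 2.23 of the H3K27me3 promoters (n = 9 animals, the last 8.29% without the lowest-scoring 25% of peaks), beside 60.8% of all promoters. The median H3K4me3 level was 65.9 RPM in the H3K27ac class, 26.2 in the class with both marks and 25.4 over all promoters. The median H3K27me3 level was 17.9 RPM in the class with both marks and 16.6 in the H3K27me3 class, and the median H3K27ac level 11.3 and 20.9 RPM in the classes with both marks and with H3K27ac. In gastrocnemius (n = 10 animals), 69.5% ± 2.63 of the promoters with both marks in cortex carried H3K27ac, 78.9% ± 3.62 H3K27me3 and 49.2% ± 5.31 both, while over all promoters the shares were 62.3%, 24.05% and 10.9%.

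Hox genes, which set position along the body axis, and regulators of other tissues were mostly H3K27me3 promoters. All 39 of 39 Hox promoters carried H3K27me3 more often, beside 10.1% of all promoters, and H3K27ac was called in no animal at 38 of them. At Hoxd1 it was called in 3 animals. Hoxa2, a regulator of the hindbrain, had 38.1, 46.0 and 57.8 RPM of H3K27me3 in the lowest, median and highest animal, with H3K27ac at 0 in all 9. Hoxa10, shown above, had 45.1, 54.6 and 62.2 RPM. H3K4me3 was called in at least 7 animals at 6 of the 39 Hox promoters, where 60.8% of all promoters were called in a mean animal. Of 42 developmental regulators of other tissues, 32 carried H3K27me3 more often, 8 both marks, which 8.7% of all promoters carried, and 2 were mixed. Pax1, a regulator of the vertebral column, had 31.0, 38.7 and 43.5 RPM of H3K27me3 with no H3K27ac, and Pax2, of kidney and eye, 31.6, 37.1 and 47.9 RPM. The 8 with both marks were Nkx2-2, En2, Msx1, Prrx1, Tbx3, Foxc1, Sox17 and Gata2. Gata2, a regulator of blood progenitors, held 10.5, 14.5 and 16.4 RPM of H3K27ac and 34.97, 46.6 and 58.9 of H3K27me3. Nkx2-2, which acts in ventral neural and oligodendrocyte progenitors, held 15.2, 16.1 and 22.3 RPM of H3K27ac beside 25.7, 37.0 and 41.8 of H3K27me3. Both marks overlapped at Gata2 over 5200 bp, the whole window, in every animal.

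**Figure D4:**
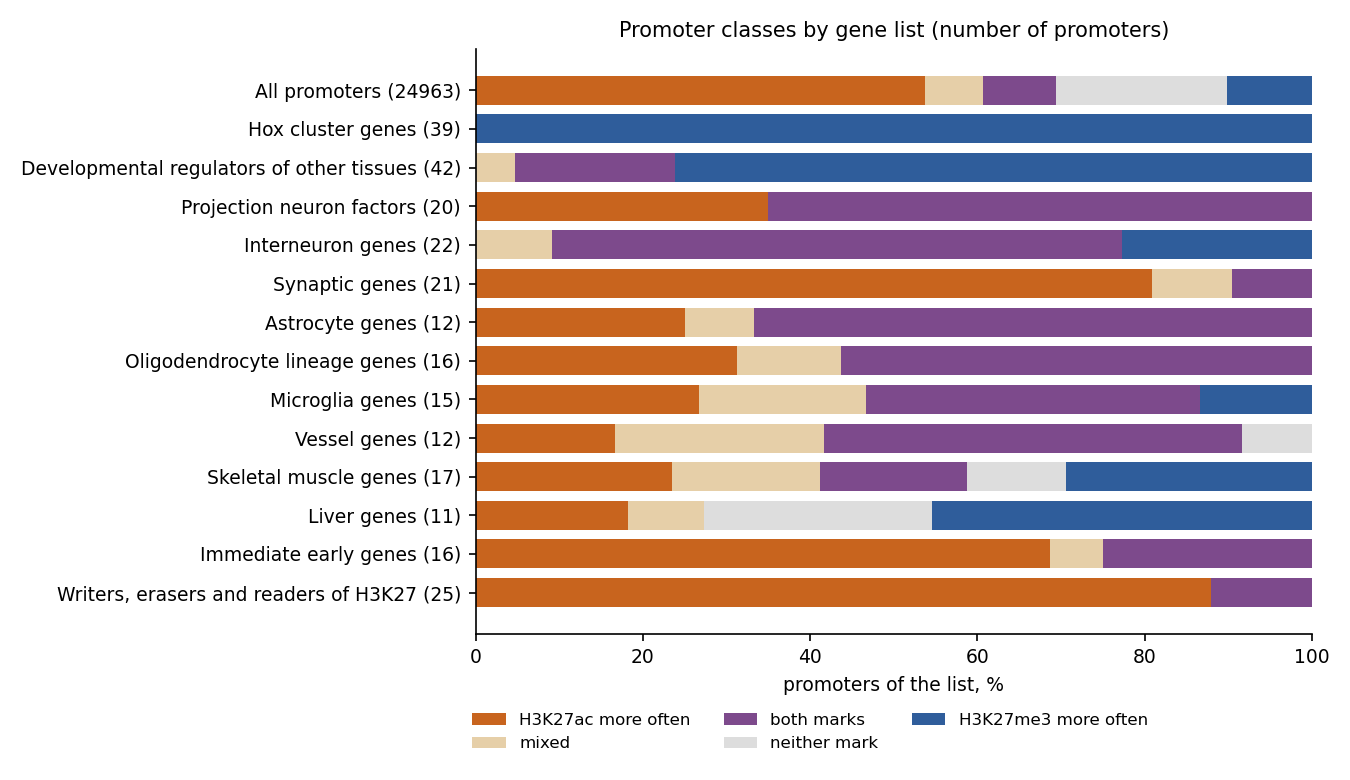
Share of each gene list (horizontal axis, percent) in the promoter classes H3K27ac more often, both marks, H3K27me3 more often, mixed and neither, with all 24963 promoters as the reference bar. Hox genes fill the H3K27me3 class with 39 of 39, and both marks take 13 of 20 projection neuron factors and 15 of 22 interneuron genes against 8.7% of all promoters.

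Many genes of cortical neurons carried both marks. Among 20 projection neuron factors, the transcription factors of excitatory cortical neurons, 13 carried both marks (8.7% of all promoters did) and 7 H3K27ac more often. Fezf2, of subcerebral projection neurons, had 9.16, 16.8 and 24.3 RPM of H3K27ac and 20.5, 29.0 and 37.3 of H3K27me3 in the lowest, median and highest animal. Tbr1, of deep-layer neurons, had 14.0, 24.0 and 30.9 RPM of H3K27ac and 15.6, 25.3 and 33.7 of H3K27me3. The 2 ranges of each gene overlap, though levels of different antibodies are not on one scale. Among 22 interneuron genes, 15 carried both marks, 5 H3K27me3 more often and none H3K27ac more often. Those 5 were the neuropeptide genes Sst and Vip, the calcium-binding Calb2, and the factors Nkx2-1 and Sp8. Gad1, which makes GABA, had 7.17, 14.2 and 37.4 RPM of H3K27ac beside 23.2, 33.9 and 41.0 of H3K27me3. Synaptic genes differed in count: 17 of 21 had H3K27ac more often (53.8% of all promoters did) and 2 both marks, Slc17a7, the vesicular glutamate transporter (H3K27ac 19.1, 26.0 and 33.7 RPM, H3K27me3 17.3, 21.9 and 28.9), and Grin1, the obligate NMDA receptor subunit. Snap25, of the vesicle fusion machinery, had 16.2, 28.2 and 33.0 RPM of H3K27ac, with H3K27me3 called in 2 animals.

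Glia and vessel genes also had members with both marks, which 8.7% of all promoters carried, while 53.8% had H3K27ac and 10.1% H3K27me3 more often. Of 12 astrocyte genes 8 carried both marks, and 3 H3K27ac more often (S100b, Aldoc and Glul). Gfap, the astrocyte filament protein, had 10.5, 12.4 and 14.1 RPM of H3K27ac and 15.9, 20.2 and 27.8 of H3K27me3. Of 16 oligodendrocyte lineage genes 9 carried both marks, and 5 H3K27ac more often. Sox10, the lineage's regulator, had 16.5, 19.3 and 23.1 RPM of H3K27ac and 26.6, 32.3 and 40.6 of H3K27me3, overlapping over the whole window in 9 animals. Of 15 microglia genes 6 carried both marks, 4 H3K27ac more often and 2 H3K27me3 more often (Itgam and Itgax, both integrin chains). C1qc, a complement chain, had 5.56, 10.98 and 12.4 RPM of H3K27ac beside 22.7, 28.4 and 39.5 of H3K27me3. Of 12 vessel genes 6 carried both marks. Cldn5, a claudin of endothelial tight junctions, had 12.6, 15.6 and 19.6 RPM of H3K27ac and 21.6, 30.2 and 39.6 of H3K27me3.

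**Figure D5:**
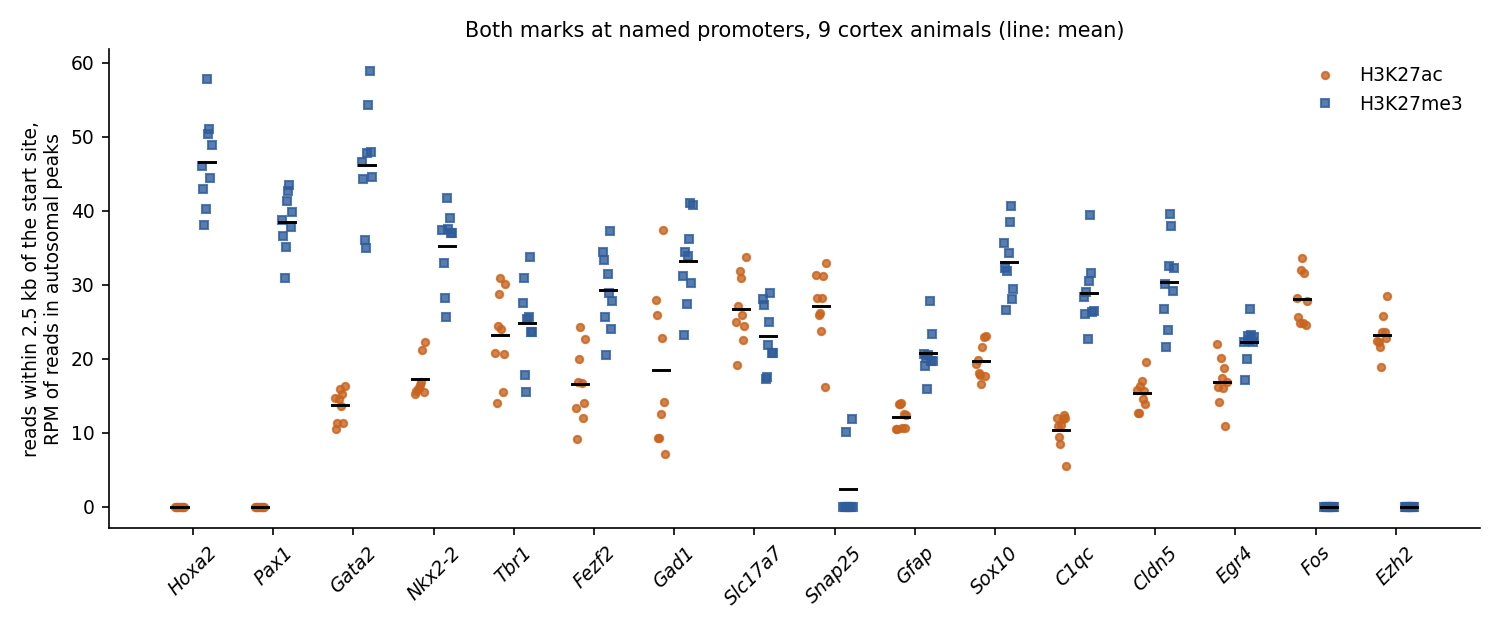
H3K27ac and H3K27me3 RPM within 2.5 kb of the start site (vertical axis) for 16 named promoters, with 1 point per animal and mark and a line at the mean. Hoxa2 and Pax1 have H3K27ac at 0 in every animal, Fos and Ezh2 have H3K27me3 at 0, and Gata2, Sox10, Gad1 and Cldn5 have both above 0 in all 9.

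Genes of other tissues and of general use are read against the same shares, 53.8% of all promoters with H3K27ac more often, 10.1% with H3K27me3 more often and 8.7% with both marks. Of 17 skeletal muscle genes 5 carried H3K27me3 more often, among them Myod1, the myogenic factor (H3K27me3 21.3, 29.2 and 38.0 RPM), and Ckm, muscle creatine kinase. A further 4 carried H3K27ac more often, 3 both marks, 3 were mixed and 2 had neither. In gastrocnemius H3K27ac was called in at least 8 of 10 animals at 17 of 17 of them, beside 60.2% of all promoters. Of 11 liver genes 5 carried H3K27me3 more often, 2 H3K27ac more often, 3 neither and 1 was mixed. Alb, the serum albumin gene, was called for neither mark in any animal. Of 16 immediate early genes, which neurons induce within minutes of activity, 11 carried H3K27ac more often and 4 both marks (Egr2, Egr3, Egr4 and Nr4a2). Fos, a member of AP-1, had 24.6, 27.8 and 33.6 RPM of H3K27ac with H3K27me3 at 0 in 9 of 9. Among 25 writers, erasers and readers of lysine 27, 22 carried H3K27ac more often, and 3 carried both marks, among them Cbx2 and Cbx8, chromobox readers of H3K27me3 in Polycomb complexes. Ezh2, the methyltransferase, had 18.8, 22.8 and 28.4 RPM and Ep300, the acetyltransferase, 32.3, 47.1 and 62.0 RPM of H3K27ac, both with H3K27me3 at 0.

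The animals differed widely at some genes of inhibitory neurons. Of the 22 interneuron genes, 14 had H3K27ac in all 9 animals, and their ratio of highest to lowest animal ranged from 1.597 at Prox1 to 5.22 at Gad1, with a median of 2.98. Of these 14, 9 lay above 2.38, the 95th percentile over the 14760 promoters with H3K27ac in all 9 animals, whose median was 1.61, and Lhx6 (1.81), Dlx2 (2.10), Nr2f2 (2.20) and Pvalb (2.21) lay below it. Of the 20 projection neuron factors, all with H3K27ac in 9 animals, 5 lay above the same 2.38, at 2.58 to 2.83, among them Fezf2 (2.66), and their median was 1.78. In animals 1 to 9, H3K27ac at Gad1 was 27.98, 25.9, 9.25, 9.25, 12.6, 22.8, 37.4, 14.2 and 7.17 RPM, so animals 1, 2, 6 and 7 were high. Gad2, its sister enzyme, had 22.1, 21.4, 19.02 and 25.5 RPM in those 4 and 8.45 to 10.4 in the rest, and Dlx6, a homeobox factor of the lineage, 22.4, 29.5, 19.4 and 28.8 against 6.74 to 10.3. The same 4 animals were thus the highest at all 3 genes, without overlap with the other 5, as they were for H3K4me3 at Gad1, which was 51.8, 71.8, 24.4, 20.8, 26.1, 46.03, 70.1, 29.9 and 24.8 RPM in animals 1 to 9. The ratio at Gad1 was exceeded by 8 of the 14760 promoters. For Dlx6 it was 4.38 and for Slc32a1, the vesicular GABA transporter, 3.66. H3K27me3 at Gad1 was 31.2, 23.2, 34.5, 27.4, 33.9, 36.2, 41.0, 30.3 and 40.7 RPM in animals 1 to 9, with the lowest and the highest both among those 4. H3K27ac summed over the projection neuron factors was 415.8, 358.1, 432.7, 462.8, 475.5, 428.9, 410.02, 378.3 and 521.5 RPM in animals 1 to 9, so the 4 animals that were high at Gad1 lay below the other 5 except animal 8. H3K27me3 summed over the same genes was highest in animals 7, 2, 6 and 1, at 431.2, 386.8, 367.8 and 353.3 RPM, the same 4 animals, against 239.1 to 311.7 in the other 5. This order was not particular to the projection neuron factors. H3K27me3 summed over the immediate early genes was 131.3, 102.6, 95.64 and 105.5 RPM in animals 1, 2, 6 and 7, against 60.2 to 95.55 in the other 5. The sums over the Hox genes and over the interneuron genes did not separate the same 4 animals. The part of these sums in the values of the interneuron genes was not tested. The animals that were high at Gad1 were seen from these values and were not tested as a group.

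Promoters with both marks were ranked by the geometric mean of their mean RPM of the 2 marks, which put Prnp, described above, first, followed by Sfi1, a centrosome protein gene, and Mir101c. Sfi1 had 30.2, 39.2 and 47.3 RPM of H3K27ac and 288, 398 and 487 of H3K27me3, and Mir101c 16.5, 34.998 and 40.1 and 204, 259 and 296. Whether the reads at these 2 places, or at Hjurp and Ugt1a1 named next, are unique to them was not tested. Next were Hjurp (H3K27ac 21.0, 30.4 and 55.3 RPM, H3K27me3 12.9, 63.1 and 78.5), Mir124a-3, a precursor of the neuronal miR-124, Islr2, Rbfox3, which encodes the neuronal protein NeuN, Cilp2 and Tril. Rbfox3 had 26.0, 36.6 and 48.4 RPM of H3K27ac and 16.2, 25.8 and 28.6 of H3K27me3. The strongest promoters without H3K27me3 were led by Tnrc18 (56.2, 66.3 and 85.0 RPM of H3K27ac) and Dusp7 (47.4, 57.5 and 68.4). Those without H3K27ac were led by Ugt1a1 (38.7, 73.8 and 106 RPM of H3K27me3), and 9 of the 10 strongest were start sites of the Hoxa cluster.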

How the data were processed

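H3K27ac, H3K27me3 and H3K4me3 ChIP-seq peaks of cortex and gastrocnemius were used as deposited. The authors aligned 51 bp paired-end reads to mm10 with bwa 0.7.17, removed unmapped, duplicate and low-quality reads with SAMtools, and called peaks per library with epic2 (window 200 bp, gaps of 2 windows for H3K27ac and H3K4me3 and 3 for H3K27me3, FDR below 0.05, e = 100). The epic2 version and any input library are not given in the sources used here. The deposited ChIPCount column holds raw read counts per peak, and the deposited Score column an epic2 score, used here only to rank peaks. Peak reads were spread evenly over the peak and scaled to RPM of the library's autosomal peak reads. Levels of different antibodies are not on one scale, so marks were compared by calls, coverage and overlap.

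Each H3K27ac library was paired with the H3K27me3 library of the same animal, known from the animal code in the deposited names. Values per animal were tested by exact sign-flip permutation, library values by exact permutation of the mark labels, promoters by Fisher's exact test with Benjamini-Hochberg adjustment. Replicates are separate mice. Start sites and sequences are of RefSeq GRCm38.p6. Computations used Python 3.11.15, numpy 2.4.6, pandas 2.3.3 and SciPy 1.17.1, and the scripts were tested on simulated data. Genes were named by a rule: the first 2 members of each list, up to 3 with the longest overlap of both marks, and the 10 strongest promoters of each of 3 sets. Some named genes are not reported here. The members and lists were chosen with earlier results of these data known. Alternatives were another promoter window, fewer peaks, other calls, another pairing and leaving out each animal or the 2 with a run number. The counts carry no depth beyond peaks, and 9 animals limit the smallest p to 0.00391.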

Additional observations from a re-analysis of the deposited data

Results flagged for a closer look

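Of 189 values per animal that were checked, 14 had an animal far from the other 8, and chance flags about 1 in 20 groups. In 7 of the 14 the distant animal was 9, whose H3K27ac library is the shallowest. There, H3K27ac reads in peaks were 3.90 M against 14.3 to 21.0 M, promoters with H3K27ac 15086 against 16287 to 16801, and promoters with both marks 2315 against 2800 to 3298. In the same animal H3K27ac was 18.97 RPM at Tbx3 (others 10.1 to 14.0), 15.7 at Tnni2 (others 9.13 to 11.3) and 0 at Pecam1 (others 7.09 to 13.5), and H3K27me3 at Cdh5 was 6.34 RPM (others 17.2 to 24.2). Animal 5 stood apart at Prnp, with H3K27ac at 25.5 RPM (others 94.7 to 150.6) and H3K27me3 at 0 (others 199.7 to 307), the gene whose promoter drives the transgenes.

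Animal 8 was lowest for H3K27ac at Egr1 (24.0 RPM, others 29.1 to 32.9), Egr3 (27.3, others 36.9 to 46.6) and Mir101c (16.5, others 29.7 to 40.1). Animal 3 had no H3K27me3 at Cx3cr1 (0, others 9.61 to 16.3). Animal 2 had H3K27me3 at 9.65 RPM at Aqp4 (others 16.2 to 22.4). The log2 overlap ratio also differed between cortex and gastrocnemius of the same animals, by 0.36 (exact sign-flip permutation test, n = 9, two-sided, p = 0.00391).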

How the results depend on the processing

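Of 298 alternative values over 21 results, 266 stayed on the same side of their threshold or near their value. The 3 that turned direction were all of the edge distance, whose difference passed no test: -11.1 bp for H3K27me3 peaks of at least 5 kb, -33.3 bp with peaks within 1 kb joined and -22.3 bp by the mean distance. Without the lowest-scoring 25% of peaks, alternatives moved the share of H3K27ac bases under H3K27me3 to 7.40%, the H3K27ac density difference to -0.017 (adjusted p = 0.0465) and the H3K4me3 shares of the H3K27ac, H3K27me3 and both-mark promoters to 89.6%, 8.29% and 86.8%. With equally many top-scoring peaks per library these were 7.70%, -0.019 (adjusted p = 0.0212) and, for the H3K27ac promoters, 91.1%. Counted as peaks with any overlap, the share was 14.2%, and where 50% of the peak was shared the density difference was -0.18. Without the 2 animals with a run number the H3K27ac promoters had H3K4me3 at 90.8%, and with a 2.5 kb window the promoters with both marks had it at 88.5%. With each animal left out these shares were 90.3 to 90.9% and 90.6 to 92.0%, and the difference between own and other animals -15.4 to -10.6 promoters, losing its call without animals 1, 4 and 5. At the start site itself it was -9.33 (exact p = 0.0720). Both marks in all 9 animals left 1269 promoters, and in at least 3 animals 3471, against 2173. With the animal as a replicate block (the pairing by animal) the covered length had exact p = 0.0117, so it stayed past its threshold, as did peak number and width, while 12802 and 1960 promoters were called in place of 13420 and 2523. With libraries of different animals paired, the log2 overlap ratio was -0.22. A missing peak says only that none was called in that library, at depths that ranged from 3.90 to 21.0 M reads for H3K27ac.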

Other observations

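Bases that carried both marks in all 9 animals were few and lay near genes. Of 78.0 Mb with both marks in at least 1 animal, 4.31 Mb (5.52%) had both in all 9, and 36.9% had both in only 1 animal. For each mark alone, 29.3% of H3K27ac bases and 13.6% of H3K27me3 bases seen in any animal were seen in all 9. The 4.31 Mb fell into 2463 segments with a median width of 1.4 kb, of which 829 (33.7%) held a start site and 1630 (66.2%) had H3K4me3 in at least 7 animals. Of these bases 54.4% lay within 2.5 kb of a start site, against 28.0% of the bases shared in a mean animal and 4.87% of the autosomes. The same share for bases with 1 mark in all 9 animals was not computed. The widest was 50.6 kb at Sfi1, chr11:3149401-3200000. Among those with a start site, the next were 11.6 kb at Sox10, 9.8 kb at Islr2, 9.4 kb at Asic4, an acid-sensing ion channel gene, 9 kb at Ankrd63 and 8.4 kb at Slc17a7, chr7:45162801-45171200. A segment of 9 kb lay 14.5 kb from Sox2, the neural stem cell factor.

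In gastrocnemius, of the 13 projection neuron factors with both marks in cortex, 12 carried H3K27me3 and 4 H3K27ac there in at least 8 of 10 animals. Among all 2173 promoters with both marks in cortex these shares were 73.1% and 65.2%. Of the 6 microglia genes with both marks in cortex, 6 carried H3K27me3 and 1 H3K27ac. The other lists did not all lean this way, since 6 of the 6 vessel genes with both marks in cortex carried H3K27ac there and 3 H3K27me3, the 8 astrocyte genes were even at 6 and 6, and the 3 skeletal muscle genes all carried H3K27ac and 0 H3K27me3. Of the 39 Hox promoters, 29 carried H3K27ac and 25 H3K27me3 in that muscle, where 15 had both, and over all 24963 promoters 60.2% carried H3K27ac, 18.6% H3K27me3 and 7.15% both by the same count. The differences between the tissues in these counts were not tested.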
